A study of Mus musculus with 20 samples.

Results

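Oxidative phosphorylation genes encode the machinery in the inner mitochondrial membrane that passes electrons from nutrients to oxygen and uses the resulting proton gradient to make ATP. Members were the rows of the deposited probe table whose gene symbol begins with Nduf, Uqcr or Atp5, begins with Cox followed by a digit from 4 to 8, or is Sdha, Sdhb, Sdhc, Sdhd or Cyc1. This gave 128 probes for 91 genes, of 30146 probes for 21450 gene symbols in all. The probes were counted in liver RNA from 20 male Balb-C mice by TempO-Seq, which joins 2 neighbouring oligonucleotides on each target transcript and sequences the product. The mice were 10 to 12 weeks old and received Nafion byproduct 2 (PFESA-BP2), a fluorinated ether sulfonic acid, by gavage once a day for 7 days. Vehicle controls and mice given 0.03, 0.3, 3 or 6 mg/kg per day made up 5 groups of 4 mice, and each mouse gave 1 library. No genetic change is given for any group. The protocols give deionized water as vehicle but control titles read DMSO, and which was given is not settled here.

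Complex I (NADH dehydrogenase) and complex II (succinate dehydrogenase) feed electrons to coenzyme Q, complex III passes them from coenzyme Q to cytochrome c, and complex IV (cytochrome c oxidase) hands them to oxygen. Complex V is the ATP synthase, which turns as protons flow back through the membrane. The liver relies on this machinery to burn fatty acids and to supply ATP for glucose and urea synthesis, and nuclear genes for the subunits are known targets of the transcription factors NRF1 and GABPA and of the coactivator PGC-1alpha, the product of Ppargc1a.

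Complex I subunits took 53 of the probes (35 genes), and 8 probes (8 genes) belonged to complex I assembly factors. Complex II had 8 probes (4 genes), complex III 12 (9 genes), complex IV 23 (19 genes) and complex V 21 (15 genes). Ndufa4 was counted in complex IV, where its place is established, and Ndufa4l2 was put with it by name only. The remaining 3 probes belonged to Atp5s, a symbol that shares the prefix. A filter on low counts left 107 of the 128 probes (78 genes) for testing, of 14122 probes in the whole table. The 21 probes under the filter included every probe of 13 genes: Sdhb, Cox4i2, Cox6a2, Cox6b2, Cox7a1, Cox7a2, Cox7b2, Cox8c, Ndufa3, Ndufa4l2, Ndufaf2, Ndufaf7 and Atp5s. The probe for Sdhb, the iron-sulfur subunit of complex II, had 0 counts in all 20 libraries, so that nothing can be said here about that transcript.

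Each library held between 6823518 and 10310931 counts. Levels are given as CPM, counts per 1e+06 counts of the library after scaling by the trimmed mean of M values (TMM), and the floor of 3 counts in a single library equals 0.251 to 0.510 CPM. Replicate 4 at 3 mg/kg and replicate 4 at 6 mg/kg stood apart from their groups. Among the tested members, 21 probes (19.6%) lay below 0.5 times the lowest of the other 3 libraries in replicate 4 at 3 mg/kg, and 15 (14%) did so in replicate 4 at 6 mg/kg. Over all tested probes these shares were 16.1% and 7.46%. In each of the other 18 libraries at most 2 member probes did so. Just 4 of these low probes were shared by both libraries (Cox7c, Ndufaf1, Ndufc2 and Ndufv3 probe 29149). Counts of calls are therefore also given without these 2 libraries.

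**Figure D1:**
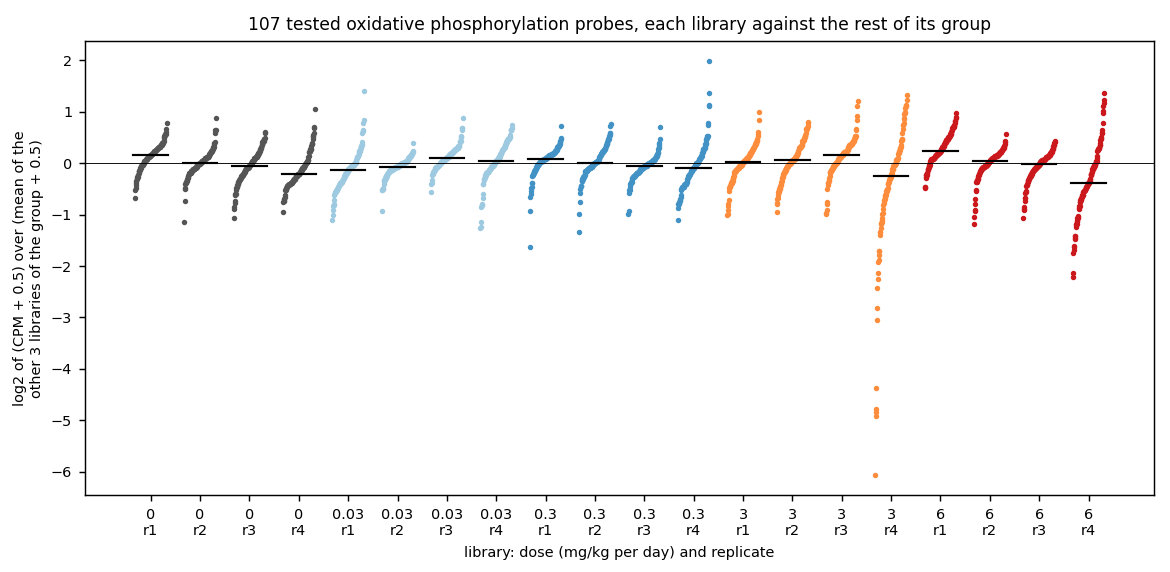
Each point is 1 of 107 tested member probes in 1 library, as the log2 of (CPM + 0.5) over (the mean of the other 3 libraries of the group + 0.5), and the bar is the library's median. The libraries run from control to 6 mg/kg, and replicate 4 at 3 mg/kg reaches down to -6.06, with 30 of 107 probes more than 1 log2 unit from its group.

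Stretches of DNA just upstream of a RefSeq start of 4 genes show a form of the binding motif of NRF1. It was the one found most often in member promoters among 3 motifs searched. The genes are Atp5k, which was higher at 6 mg/kg, Sdha, whose probes were called in both directions, Ndufb4, which was lower, and Cox6a1, which was not called. Each line reads 5′ to 3′ along the gene's strand in RefSeq's GRCm38.p6 and ends before the start of transcription that RefSeq annotates. The capitals mark the motif. The GENCODE M21 gene positions used elsewhere in this text start further upstream for Atp5k and Ndufb4. By those positions the marked motif of Ndufb4, and nearly all of that of Atp5k, lies inside the gene.
Atp5k, chr5:108434425-108434464, minus strand: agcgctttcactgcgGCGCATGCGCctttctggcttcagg
Sdha, chr13:74350314-74350353, minus strand: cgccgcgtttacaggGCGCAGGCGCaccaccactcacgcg
Ndufb4, chr16:37654423-37654462, minus strand: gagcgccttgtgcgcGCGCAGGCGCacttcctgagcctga
Cox6a1, chr5:115349051-115349090, minus strand: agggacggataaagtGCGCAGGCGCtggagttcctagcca

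The motif was searched as GCGCA, any base and GCGC on both strands, from 250 bases before to 50 after each RefSeq start, and a promoter was at hand for 74 of the 91 genes. It was found in 19 of 65 genes with a tested probe and a promoter (29.2%), against 12.3% of all 7983 genes with a tested probe and a promoter. The GABPA letters CCGGAAG were found in 26.2% of these member genes, against 20.7% of all, and the YY1 letters AAGATGGC in 13.8%, against 5.55%. By call at 6 mg/kg, the NRF1 letters were found in 3 of 7 genes with a probe called higher (Atp5k, Sdha and Uqcrc1), in 2 of 7 with a probe called lower (Ndufb4 and Sdha), and in 15 of 52 with no probe called. A match is a description of letters and does not show that a factor binds there.

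All member probes together reached 16788 ± 1408 CPM in control livers, 16124 ± 562 at 0.03 mg/kg, 14518 ± 577 at 0.3 mg/kg, 16517 ± 2259 at 3 mg/kg and 14753 ± 2189 at 6 mg/kg (SD, n = 4 each). The libraries at 6 mg/kg summed to 17208, 15065, 14855 and 11883 CPM, against 18706, 16981, 15665 and 15801 CPM in controls, and the groups overlapped. The sums at 0.3 mg/kg lay between 13909 and 15254 CPM, below every control. As a share of raw counts, the members took 1.54% ± 0.152 at 6 mg/kg and 1.60% ± 0.120 in controls, and at 0.3 mg/kg the shares of 1.44% to 1.61% overlapped the 1.47% to 1.71% of controls. Probes for major urinary proteins, abundant secreted proteins of mouse liver, took 8.90% ± 4.09 of counts at 6 mg/kg and 16.3% ± 3.71 in controls, and the scale of every share moves with them. The members' share at 6 mg/kg minus that in controls was -0.0612 percentage points, and -0.217 with those probes left out of the total.

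By complex, the subunits of complex I summed to 6131 ± 909 CPM at 6 mg/kg and 7174 ± 708 in controls, and those of complex V to 4247 ± 474 at 6 mg/kg and 4372 ± 309 in controls (SD, n = 4 each). Complex III summed to 1753 ± 380 at 6 mg/kg and 1890 ± 225 in controls, complex II to 814 ± 30.6 and 887 ± 64.7 in the same order, and complex IV to 1582 ± 388 and 2063 ± 199. The assembly factors of complex I summed to 255, 231, 236 and 178 CPM at 6 mg/kg, against 422, 406, 352 and 421 CPM in controls, with no overlap between the groups. No test was made of these sums, since the members were chosen with results known.

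**Figure D2:**
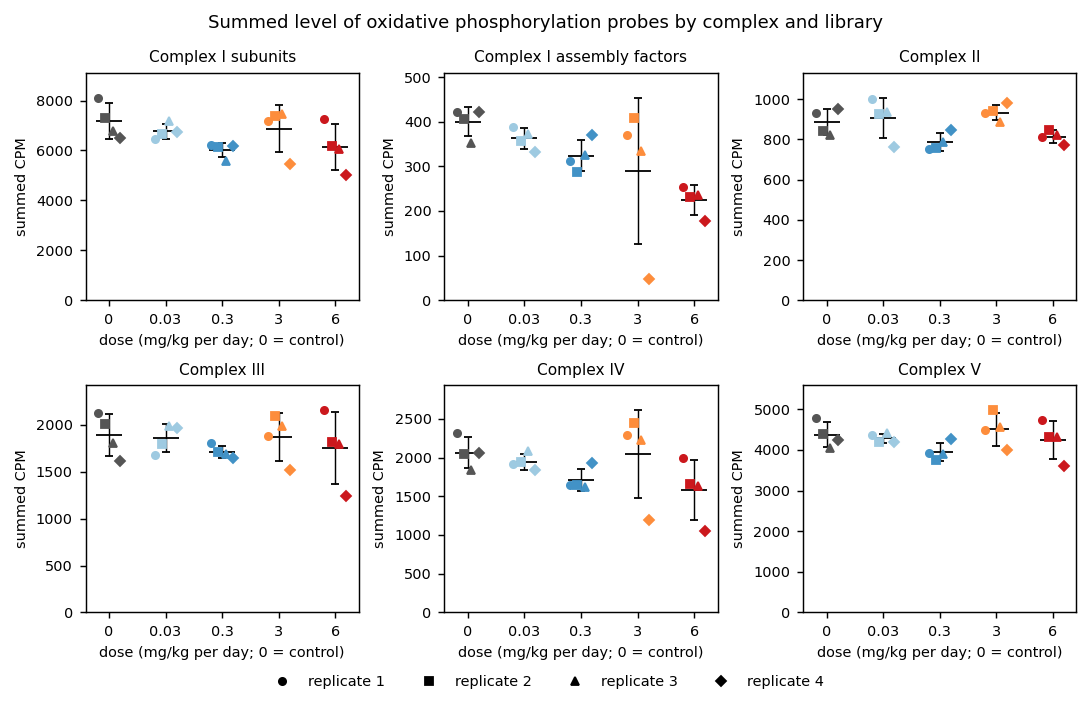
Summed CPM of all member probes of a complex (vertical axis, from 0) in each of 20 libraries, by dose in mg/kg per day from control (0) to 6, with the group mean and SD in black. The assembly factors of complex I lie between 178 and 255 CPM at 6 mg/kg and between 352 and 422 CPM in controls, and replicate 4 at 3 mg/kg lies at 48.5 CPM.

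At 0.03 mg/kg no member was called (edgeR adjusted p under 0.05, Benjamini-Hochberg over all 14122 tested probes), 0 of 107 had an unadjusted p under 0.05, and DESeq2 and limma-voom also called 0. Of all tested probes, 0% were called at this dose. The log2 changes of the members lay between -0.37 and 0.50, with a median of 0.0058 beside -0.0040 over all tested probes. At 0.3 mg/kg edgeR, DESeq2 and limma-voom again called 0 members and the background by edgeR was again 0%, while 9 members had an unadjusted p under 0.05. There, 70 of 107 members had a log2 change below 0 and the members' median was -0.08, beside 0.00039 over all tested probes. That sign turned with the scaling: with total counts alone the median was 0.07 for the members and 0.16 over all tested probes.

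At 3 mg/kg edgeR called 0 of 107 members, where 1.49% of all tested probes were called (1.11% higher and 0.382% lower), and 8 members had an unadjusted p under 0.05. The member with the smallest p was Ndufa9 (probe 59930), an accessory subunit of complex I with an NAD(P)H-binding fold. It had 6.90, 6.97, 11.1 and 0.571 CPM at 3 mg/kg, against 25.9, 17.7, 17.2 and 17.4 CPM in controls. The groups did not overlap, and the log2 change was -1.66 ± 0.44 (SE) with an edgeR adjusted p of 0.0677. The gene's other probe, 30682, has far more counts and averaged 548 ± 56.9 CPM at 3 mg/kg and 595 ± 64.5 in controls (SD, n = 4 each; log2 change -0.12, edgeR adjusted p 0.728). DESeq2, limma-voom and a fit scaled by total counts each called probe 59930 lower. Without the 2 libraries that stood apart, probe 59930 had a log2 change of -1.25 with an edgeR adjusted p of 0.00244. Its 0.571 CPM was among the low values that set replicate 4 at 3 mg/kg apart, so that p gives no separate support. Fits without replicate 3 or without replicate 4 at 3 mg/kg each called 1 member lower. Ndufs7 (probe 31350) came next, with a log2 change of 0.76 ± 0.22 and an edgeR adjusted p of 0.106.

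At 6 mg/kg the members changed in both directions, and how often beside other probes depended on the probes compared. Of 107 member probes, 20 were called (18.7%), where 20.3% of all tested probes were called. Of these, 11 were higher (10.3%, beside 11.6% of all tested probes) and 9 were lower (8.41%, beside 8.73%). Among probes with a mean count of at least 100, 16 of 87 members were called (18.4%), beside 25.2% of all such probes. Under that count, 4 of 20 members were called (20.0%), beside 16.4%. With 1 probe a gene, 11 of 78 members were called (14.1%), beside 20.5% of all genes. The median log2 change of the members was -0.06, beside 0.01 over all tested probes. Complex I subunits had 4 probes higher and 5 lower of 49, complex II 1 higher and 1 lower of 7, and complex III 4 higher and 0 lower of 12. Complex IV had 1 higher and 2 lower of 12, complex V 1 higher and 1 lower of 21, and the assembly factors of complex I had 0 called of 6, with 1 unadjusted p under 0.05.

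**Figure D3:**
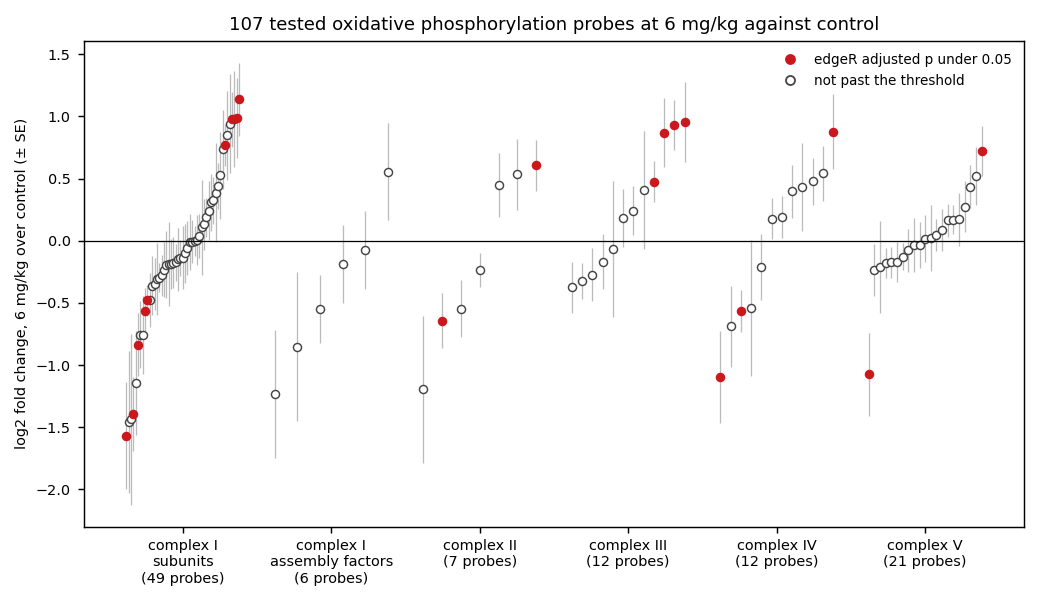
Log2 fold change of 6 mg/kg over control with its SE (vertical axis) for 107 tested member probes, sorted within each complex, with the 20 called by edgeR filled. Complex III has 4 called probes, all above 0, while complex I subunits have called probes on both sides, from -1.57 to 1.14.

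Without the 2 libraries that stood apart, 31 of 107 members were called at 6 mg/kg (29%; 13 higher and 18 lower), and 16 of them were among the 20. In that fit 27.8% of all tested probes were called, so that the share of the members again lay near that of all tested probes. With each of the 8 libraries left out in turn, between 4 and 10 probes were called higher and between 3 and 14 lower. All 6 mg/kg wells were in plate row B and all control wells in row A, and just 1 library at 0.3 mg/kg links a dose across the rows. With plate row as a covariate, 1 member was called higher (Ndufs7 probe 31350, log2 change 1.57) and 1 lower (Cox6c, -2.46), so that dose and plate row rest on that 1 library to be told apart. In whole liver, fewer cells of a type and less RNA per cell cannot be told apart either.

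Hepatocyte markers (9 listed, 8 tested) summed to between 14290 and 16568 CPM at 6 mg/kg, against 19726 to 23271 CPM in controls. Of these, 1 was called higher (Tat) and 1 lower (albumin). Albumin weighed most in the sum, with means of 6047 CPM at 6 mg/kg and 10667 in controls. Apoa1, the next most abundant, averaged 5911 CPM at 6 mg/kg and 6294 in controls and was not called. Kupffer cell markers, for liver macrophages, summed to between 62.9 and 111 CPM at 6 mg/kg, against 102 to 153 CPM in controls, with 1 of 7 tested called lower. Markers of stellate cells, which store vitamin A, summed to between 65.5 and 97.3 CPM at 6 mg/kg, against 106 to 140 CPM in controls, with no overlap. Of 6 tested, 3 were called lower (Lrat, Dcn and Reln) and 1 higher (Col1a1, log2 change 2.07). Dcn weighed most in the sum, with means of 34.3 CPM at 6 mg/kg and 77.0 in controls. Lymphocyte and neutrophil markers summed to between 3.54 and 6.47 CPM at 6 mg/kg, against 4.79 to 13.4 CPM in controls, with 2 of 5 tested called lower. Endothelial markers (1 of 5 higher), erythroid markers (1 of 3 higher), and brown adipose and cholangiocyte markers (0 of 1 each) had overlapping sums. The brown adipose sum came almost wholly from Elovl3, while Ucp1 had 0, Dio2 1 and Cidea 23 counts over all libraries. Skeletal muscle markers stayed between 2.24 and 4.99 CPM at 6 mg/kg and between 3.24 and 6.23 CPM in controls. The part of these shifts in the values of the members was not tested.

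In complex I, 9 of 49 subunit probes were called, in both directions. Ndufs7 (10:80249121-80256794 in GRCm38, plus strand) carries the last iron-sulfur cluster before coenzyme Q. Its probe 31350 had 5.87, 6.20, 6.14 and 5.89 CPM at 6 mg/kg, against 3.36, 3.09, 2.80 and 2.98 CPM in controls. All 4 treated libraries were above all controls (log2 change 0.98 ± 0.22, edgeR adjusted p 0.00373). The Ndufs7 probe with the most counts, 65083, went the other way and was not called. It averaged 39.0 ± 5.61 CPM at 6 mg/kg and 50.0 ± 7.71 in controls (-0.36 ± 0.24, edgeR adjusted p 0.286). Ndufs1 (1:63143596-63176833, minus strand), the largest iron-sulfur subunit, had 3.00, 2.80, 2.36 and 3.39 CPM by probe 74507 at 6 mg/kg, against 0.996, 1.69, 1.51 and 1.04 CPM in controls. These low levels did not overlap either (1.14 ± 0.29, edgeR adjusted p 0.00882). Its other probe, 74962, averaged 5.99 ± 0.379 CPM at 6 mg/kg and 4.84 ± 1.23 in controls (0.31 ± 0.23, edgeR adjusted p 0.345).

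Ndufb9, an accessory subunit of the membrane arm, was also called higher (0.99 ± 0.32, edgeR adjusted p 0.0358). It had 278, 165, 155 and 431 CPM at 6 mg/kg, against 161, 137, 106 and 114 CPM in controls. The groups overlapped, and replicate 4 was the highest. Without that library the log2 change was 0.60 with an adjusted p of 0.198, and the call was also lost without replicate 1 at 6 mg/kg and without control replicate 2, 3 or 4.

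Among the probes called lower, Ndufv3 (17:31520115-31531331, plus strand), a small accessory subunit of the NADH-oxidising arm, was called by 2 of its 5 tested probes. Probe 29149 had 29.8, 28.0, 28.5 and 8.59 CPM at 6 mg/kg, against 66.1, 57.4, 65.9 and 58.7 CPM in controls (-1.39 ± 0.30, edgeR adjusted p 0.0025). Probe 76222 had 30.8, 27.8, 27.9 and 29.9 CPM at 6 mg/kg, against 43.0, 40.9, 40.4 and 38 CPM in controls (-0.48 ± 0.12, edgeR adjusted p 0.00908). Both sets of treated libraries lay below all controls, and replicate 4 was far below its group in the first set. Ndufa9 (6:126821721-126849136, minus strand) had 7.19, 5.71, 5.67 and 7.69 CPM by probe 59930 at 6 mg/kg, against the 17.2 to 25.9 CPM of controls given above (-1.57 ± 0.43, edgeR adjusted p 0.0146). Its probe 30682 averaged 484 ± 37.3 CPM at 6 mg/kg and 595 ± 64.5 in controls (-0.30 ± 0.12, edgeR adjusted p 0.073), so that the larger drop is that of the probe with few counts. Ndufv2, an iron-sulfur subunit next to the flavin site, had 24.2, 15.3, 13.9 and 11.5 CPM at 6 mg/kg, against 32.4, 26.1, 23.8 and 33.4 CPM in controls. Its groups overlapped by 1 library (-0.83 ± 0.25, edgeR adjusted p 0.0236), and the call was lost without replicate 2, 3 or 4 at 6 mg/kg or control replicate 1 or 4, with adjusted p up to 0.0729. The values are those of probe 63201, and probe 31584 averaged 13.5 ± 6.52 CPM at 6 mg/kg and 15.4 ± 2.39 in controls (edgeR adjusted p 0.726).

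The remaining lower call of complex I, named after its value was seen, was Ndufb4, an accessory subunit of the membrane arm. It had 296, 219, 211 and 175 CPM at 6 mg/kg, against 349, 387, 314 and 282 CPM in controls (-0.56 ± 0.19, edgeR adjusted p 0.0373). The highest treated library lay above the lowest control, and the call was lost without replicate 2, 3 or 4 at 6 mg/kg or control replicate 1 or 2, with adjusted p up to 0.106. Ndufv1, which binds NADH and flavin, averaged 81.6 ± 10.2 CPM by probe 31427 at 6 mg/kg and 71.4 ± 12.7 in controls (SD, n = 4 each), with an edgeR adjusted p of 0.404, and 2.13 ± 0.656 CPM by probe 74632 at 6 mg/kg and 5.83 ± 3.31 in controls, with an adjusted p of 0.143. The calls of Ndufs7 31350, Ndufs1 74507, both Ndufv3 probes and Ndufa9 59930 held in all 8 fits that left out 1 library, with edgeR adjusted p of at most 0.0454.

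**Figure D4:**
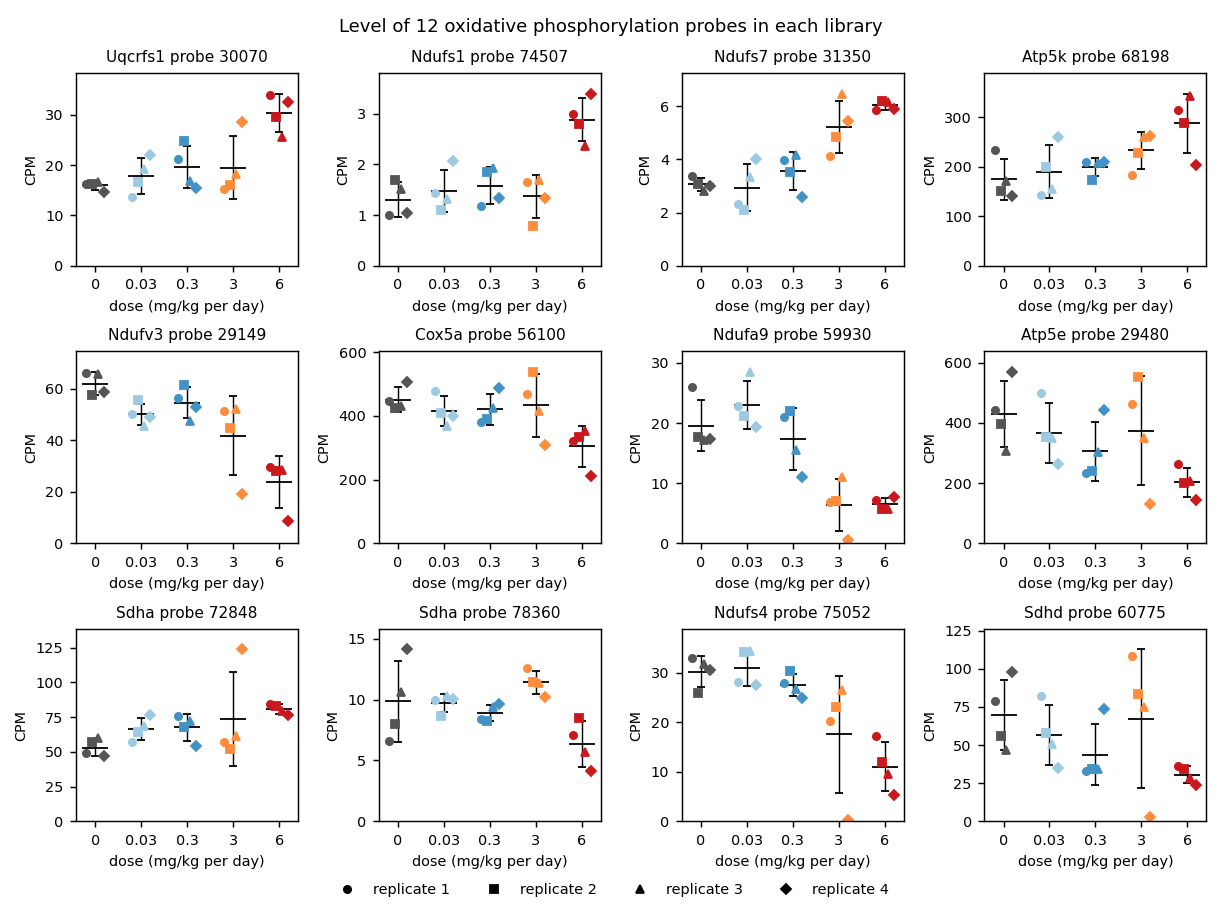
CPM of selected member probes (vertical axis of each panel, from 0) in each of 20 libraries by dose in mg/kg per day, from control (0) to 6, with the group mean and SD. Ndufa9 (probe 59930) lies between 5.67 and 7.69 CPM at 6 mg/kg and between 17.2 and 25.9 CPM in controls, with 3 mg/kg already between 0.571 and 11.1 CPM.

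The assembly factors of complex I build its arms and do not stay in the finished enzyme. Ndufaf1, which acts on the membrane arm, had 64.5, 62.0, 59.1 and 28.0 CPM at 6 mg/kg, against 122, 128, 110 and 142 CPM in controls. Ndufaf4, which acts with Ndufaf3 on the coenzyme Q module, had 93.6, 79.5, 76.5 and 80.8 CPM at 6 mg/kg, against 170, 148, 126 and 152 CPM in controls. Neither pair of groups overlapped, yet neither passed the test: Ndufaf1 gave -1.23 ± 0.52 (edgeR adjusted p 0.0965) and Ndufaf4 -0.85 ± 0.60 (edgeR adjusted p 0.327). Replicate 4 at 3 mg/kg had 4.57 CPM for Ndufaf1 and 1.52 CPM for Ndufaf4, beside 95.2 to 111 and 122 to 148 CPM in the other 3 libraries of that dose. Without it and replicate 4 at 6 mg/kg, Ndufaf1 gave -1.02 (edgeR adjusted p 1.564e-06), Ndufaf4 -0.84 (1.435e-05) and Ndufaf6 -0.41 (0.0139). Ndufs4, an accessory subunit of the NADH-oxidising arm, had a similar pattern, with 17.1, 12.0, 9.56 and 5.39 CPM at 6 mg/kg, against 32.9, 25.8, 31.6 and 30.5 CPM in controls. Its log2 change was -1.46 ± 0.57 (edgeR adjusted p 0.0772), and -1.23 (4.485e-06) without the 2 libraries. Those libraries were set apart after their values were seen. Ndufaf1, Ndufaf4, Ndufaf6 and Ndufs4 were themselves among the low probes of replicate 4 at 3 mg/kg. Leaving out a library far from its group narrows the spread of such probes, so these adjusted p give no separate support.

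In complex II, Sdha (13:74322254-74350280, minus strand), the flavoprotein that oxidises succinate, gave calls in both directions. Probe 72848 had 84.2, 83.2, 79.6 and 76.6 CPM at 6 mg/kg, against 49.4, 56.7, 59.6 and 46.6 CPM in controls (0.61 ± 0.21, edgeR adjusted p 0.0421). Probe 78360 had 7.07, 8.51, 5.67 and 4.09 CPM at 6 mg/kg, against 6.60, 8.0, 10.7 and 14.1 CPM in controls (-0.64 ± 0.22, edgeR adjusted p 0.0460). The groups of probe 72848 did not overlap and those of probe 78360 did. The probe with the most counts, 30663, averaged 290 ± 119 CPM at 6 mg/kg and 200 ± 25.9 in controls (SD, n = 4 each, edgeR adjusted p 0.184). Probe 80049 averaged 97.6 ± 17.2 CPM at 6 mg/kg and 114.55 ± 15.6 in controls (-0.23 ± 0.14, edgeR adjusted p 0.2355). The call of 72848 was lost in all 8 fits that left out 1 library, with adjusted p up to 0.107, and that of 78360 without control replicate 3 or 4 or without replicate 3 or 4 at 6 mg/kg, with adjusted p up to 0.226.

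The membrane anchors of complex II, Sdhc (1:171127165-171150603, minus strand) and Sdhd, were not called against controls. Sdhc had 339, 362, 359 and 115 CPM by probe 69644 at 6 mg/kg, against 490, 394, 400 and 430 CPM in controls (-0.55 ± 0.23, edgeR adjusted p 0.0965). Its probe 77861, with fewer counts, went the other way, with 15.6 ± 2.94 CPM at 6 mg/kg and 11.4 ± 1.87 in controls (0.45 ± 0.26, edgeR adjusted p 0.215), and its groups overlapped. Sdhd had 36.1, 34.3, 28.1 and 23.7 CPM at 6 mg/kg, against 78.8, 55.9, 46.6 and 97.8 CPM in controls (-1.19 ± 0.59, edgeR adjusted p 0.159). The groups of Sdhc probe 69644 and of Sdhd did not overlap, and replicate 4 at 3 mg/kg had 2.76 CPM for Sdhd, beside 75 to 108 CPM in the other 3 libraries.

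In complex III all 4 called probes were higher. Uqcrfs1 (13:30540308-30545362, minus strand), the Rieske iron-sulfur protein, had 34.0, 29.5, 25.5 and 32.5 CPM at 6 mg/kg, against 16.3, 16.3, 16.6 and 14.6 CPM in controls. The groups were well apart (0.93 ± 0.20, edgeR adjusted p 0.00258), and the call held in all 8 fits that left out 1 library. Uqcrc1 (9:108936633-108949623, plus strand), a core subunit, was called by 2 probes. Probe 64258 had 93.9, 102, 108 and 123 CPM at 6 mg/kg, against 67.5, 73.0, 89.0 and 77.2 CPM in controls (0.48 ± 0.17, edgeR adjusted p 0.0469), with no overlap. Probe 65301 had 26.2, 20.5, 18.4 and 56.5 CPM at 6 mg/kg, against 15.3, 17.1, 16.2 and 18.0 CPM in controls (0.87 ± 0.28, edgeR adjusted p 0.0311). Without replicate 4 at 6 mg/kg probe 65301 gave 0.36 (adjusted p 0.248), and it lost its call without any 1 of the controls.

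Uqcr10, a small subunit of complex III, had 33.8, 25.3, 21.1 and 34.5 CPM at 6 mg/kg, against 19.7, 20.5, 9.47 and 9.72 CPM in controls (0.95 ± 0.32, edgeR adjusted p 0.0401), with no overlap. Its call was lost without replicate 1, 2 or 4 at 6 mg/kg or control replicate 3 or 4 (adjusted p up to 0.121), and that of Uqcrc1 64258 without replicate 2, 3 or 4 at 6 mg/kg or control replicate 1, 2 or 4 (up to 0.145). The second core subunit, Uqcrc2, averaged 332 ± 43.2 CPM by probe 72440 at 6 mg/kg and 417 ± 50.1 in controls (-0.33 ± 0.15, edgeR adjusted p 0.118). Cyc1, the cytochrome c1 subunit, averaged 138 ± 47.7 CPM at 6 mg/kg and 155 ± 35.8 in controls (SD, n = 4 each; edgeR adjusted p 0.623).

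In complex IV, Cox5a (9:57521274-57532426, plus strand), a subunit on the matrix side, had 323, 334, 353 and 211 CPM at 6 mg/kg, against 445, 423, 430 and 506 CPM in controls. The groups did not overlap (-0.56 ± 0.17, edgeR adjusted p 0.0239), and the call was lost without replicate 4 at 6 mg/kg or control replicate 4 (adjusted p up to 0.0794). Cox6c (15:35925886-35938246, minus strand), a small membrane subunit, had 156, 100.4, 96.8 and 88.8 CPM at 6 mg/kg, against 287, 221, 130 and 308 CPM in controls. Its groups overlapped and its controls were widely spread (-1.10 ± 0.37, edgeR adjusted p 0.0436), and 6 of the 8 fits lost the call, those without replicate 2, 3 or 4 at 6 mg/kg or control replicate 1, 2 or 4 (adjusted p up to 0.124). Cox7a2l, which links complexes III and IV in supercomplexes, had 7.43, 6.32, 6.14 and 10.3 CPM at 6 mg/kg, against 3.49, 3.93, 4.73 and 4.28 CPM in controls (0.88 ± 0.30, edgeR adjusted p 0.0447). Its groups did not overlap, and the call held in just 1 of the 8 fits, that without replicate 3 at 6 mg/kg (adjusted p up to 0.164).

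Several subunits of complex IV have isoforms that differ between tissues. Cox4i1 averaged 67.1 ± 6.15 CPM at 6 mg/kg and 48.1 ± 7.96 in controls (0.48 ± 0.19, edgeR adjusted p 0.0739), while Cox4i2 had 19 counts over all 20 libraries. Cox6a1 averaged 16.3 ± 2.62 CPM at 6 mg/kg and 11.2 ± 2.88 in controls (edgeR adjusted p 0.0901), and the muscle form Cox6a2 had 4 and 0 counts by its probes. Cox6b1 averaged 141 ± 12.3 CPM by probe 69737 at 6 mg/kg and 107 ± 18.1 in controls (edgeR adjusted p 0.192), and the testis form Cox6b2 had 9, 1 and 111 counts by its 3 probes. The heart and muscle form Cox7a1 had 87 counts, and Cox7a2, the form known from liver, had just 64, so that neither could be tested. Cox8c had 11 counts, whereas Cox8a averaged 2.65 ± 0.450 CPM at 6 mg/kg and 1.93 ± 0.919 in controls (edgeR adjusted p 0.402). Cox5b averaged 107 ± 22.1 CPM at 6 mg/kg and 93.8 ± 13.7 in controls (edgeR adjusted p 0.431). Ndufa4 averaged 192 ± 70.1 CPM at 6 mg/kg and 279 ± 44.2 in controls (-0.54 ± 0.55, edgeR adjusted p 0.508), and Ndufa4l2 had 17 counts.

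In complex V, 19 of 21 probes were not called and 18 had a log2 change within 0.5 of 0. Atp5k (5:108433244-108434448, minus strand), subunit e, which helps pair ATP synthases into dimers, had 316, 288, 343 and 205 CPM at 6 mg/kg, against 234, 151, 171 and 141 CPM in controls (0.72 ± 0.20, edgeR adjusted p 0.0149). Only the lowest treated library fell within the range of the controls, and the call was lost without control replicate 2 or 4 (adjusted p up to 0.0504). Atp5e (2:174461072-174464105, minus strand), the epsilon subunit of the rotating stalk, had 263, 201, 206 and 145 CPM by probe 29480 at 6 mg/kg, against 442, 397, 306 and 570 CPM in controls. These did not overlap (-1.07 ± 0.33, edgeR adjusted p 0.0286), and the call was lost without replicate 2, 3 or 4 at 6 mg/kg or control replicate 1 or 4 (adjusted p up to 0.0947). Its other probe, 67260, averaged 181 ± 34.4 CPM at 6 mg/kg and 204 ± 20.9 in controls (-0.17 ± 0.13, edgeR adjusted p 0.336).

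Atp5a1 and Atp5b, which encode subunits of the catalytic head of complex V, showed no call. Atp5a1 averaged 512 ± 32.2 CPM by probe 66788 at 6 mg/kg and 455 ± 20.6 in controls (edgeR adjusted p 0.308), and Atp5b averaged 100.0 ± 9.62 CPM at 6 mg/kg and 94.0 ± 11.4 in controls (edgeR adjusted p 0.742). Atp5o, which ties the catalytic head to the outer stalk, averaged 66.4 ± 16.9 CPM by probe 66425 at 6 mg/kg and 78.0 ± 14.5 in controls (edgeR adjusted p 0.447). Of the 3 genes for the same ring subunit c, Atp5g3 had the highest CPM, with 132 ± 2.90 CPM at 6 mg/kg and 131 ± 6.05 in controls. Atp5g2 averaged 26.1 ± 3.28 CPM at 6 mg/kg and 21.5 ± 4.07 in controls (edgeR adjusted p 0.360), and Atp5g1 9.59 ± 1.71 at 6 mg/kg and 9.77 ± 1.91 in controls (SD, n = 4 each). Probe counts depend on how well each probe works, so levels of different genes are not compared further.

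Probes for the same gene did not always move together. Of 21 member genes with at least 2 tested probes, 11 had log2 changes of 1 sign at 6 mg/kg and 10 did not. Signs differed with at least 1 probe called in Ndufs7, Ndufv3 and Sdha, among others. In Ndufv3 only probe 78240, with a mean count of 8.75, lay above 0 (0.11, edgeR adjusted p 0.865). Its probes with the most counts, 71065 (-0.75, edgeR adjusted p 0.0933) and 31830 (-0.75, 0.0549), were below 0 like the called ones. For Ndufs7, probe 65083 had 41.8, 41.8, 41.7 and 30.6 CPM at 6 mg/kg, against 58.2, 45.9, 54.4 and 41.3 CPM in controls (-0.36 ± 0.24, edgeR adjusted p 0.286). Ndufs7 probe 31997, with few counts, had the sign of the called probe (0.98 ± 0.39, edgeR adjusted p 0.0762). Among 12 called member probes with another tested probe, 4 (33.3%) had another probe with the same call and 2 (16.7%) one with the opposite call, beside 49.0% and 1.45% of 1517 such probes in the whole table. The 2 opposite calls are both of Sdha. Where on the transcripts the probes lie was not used here.

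**Figure D5:**
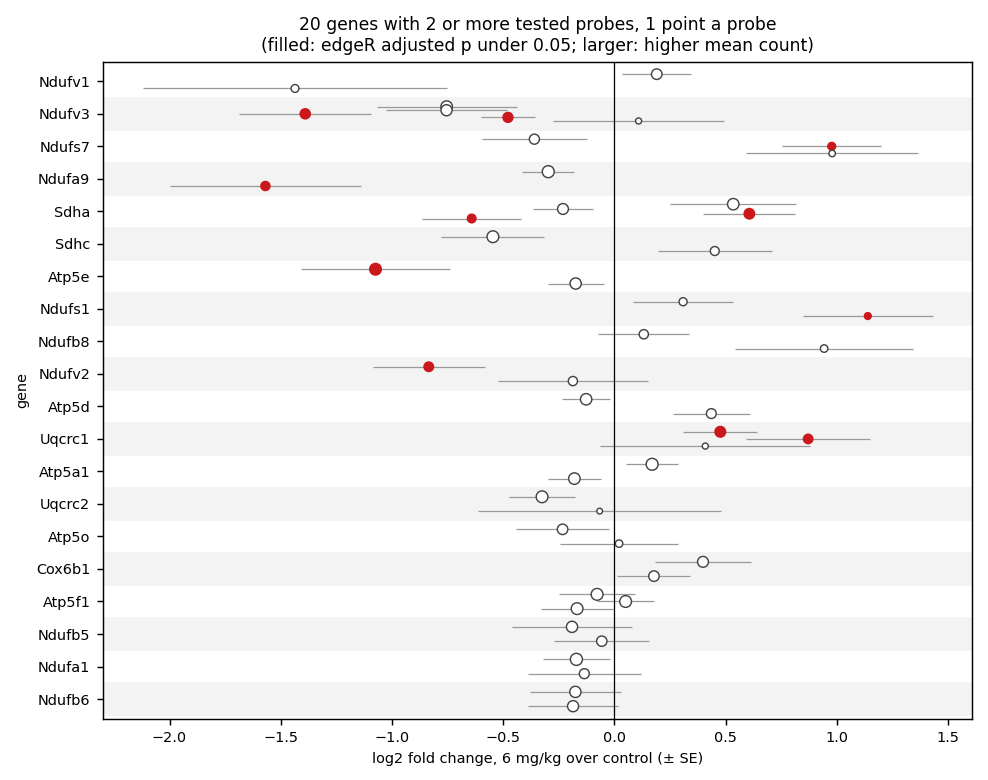
Log2 fold change of 6 mg/kg over control with its SE (horizontal axis) for each tested probe of 20 genes with at least 2, 1 row a gene (vertical axis), sorted by the range between probes; filled points were called by edgeR and larger points have a higher mean count. Sdha has called probes on both sides of 0, at 0.61 and -0.64, and Ndufs7 has 1 called at 0.98 beside 1 at -0.36.

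Some members share sequence or position with other genes. In the GENCODE M21 annotation 5 member genes have a pseudogene named after them, Atp5k among them, and their counts are uncertain to that extent. Pseudogenes under other names were not counted, so further members may be affected. Ndufb9 overlaps a protein-coding gene on its own strand, and Ndufs1 and Cox6c overlap one on the opposite strand (Eef1b2 and Vps13b). Whether counting used strand is not given in the sources used here.

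Set against 3 mg/kg, the 6 mg/kg livers had 3 member probes called higher and 2 lower of 107 (4.67%), where 6.73% of all tested probes were called (3.96% higher and 2.77% lower). Uqcrc1 65301 was higher, against 11.5, 14.1, 11.4 and 10.2 CPM at 3 mg/kg (1.37 ± 0.28, edgeR adjusted p 0.00735). Ndufs1 74507 was higher, against 1.66, 0.787, 1.70 and 1.33 CPM at 3 mg/kg (1.10 ± 0.29, edgeR adjusted p 0.0276), and lost the call without replicate 1 or 2 at 3 mg/kg or replicate 2 or 4 at 6 mg/kg (up to 0.104). Sdhc 77861 had 19.3, 15.9, 12.2 and 15.1 CPM at 6 mg/kg, against 7.32, 10.5, 9.69 and 3.33 CPM at 3 mg/kg (1.03 ± 0.26, edgeR adjusted p 0.0224), and lost the call without replicate 1 at 3 mg/kg or replicate 2 at 6 mg/kg (up to 0.0707). The lower probes were Sdha 78360, against 12.6, 11.5, 11.4 and 10.2 CPM at 3 mg/kg (-0.85 ± 0.22, edgeR adjusted p 0.0255), and Cox6c, against 303, 371, 226 and 171 CPM (-1.28 ± 0.37, edgeR adjusted p 0.0461). Sdha 78360 lost its call without replicate 1 or 2 at 3 mg/kg or replicate 3 or 4 at 6 mg/kg (up to 0.0741), and Cox6c lost it without replicate 1, 2 or 3 at 3 mg/kg or replicate 2, 3 or 4 at 6 mg/kg (up to 0.144). Without replicate 4 at 3 mg/kg, 12 members were called higher and 15 lower of 108 tested (25%), where 21.6% of all tested probes were called.

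Over the rank of the dose in all 20 libraries, 10 member probes had a positive and 5 a negative slope past the threshold, 14% of 107, where 18% of all tested probes did (11.3% positive and 6.72% negative). These slopes share their libraries with the comparisons above. The smallest p among positive slopes were those of Ndufs7 31350 (0.28 ± 0.05 log2 units a rank, edgeR adjusted p 0.000361), Uqcrfs1 (0.20 ± 0.05, 0.00318) and Atp5k (0.17 ± 0.04, 0.00651). Ndufs7 31350 had 2.80 to 3.36 CPM in controls, 2.33 to 4.01 CPM at 0.03 mg/kg and 2.57 to 4.18 at 0.3 mg/kg. It had 4.14 to 6.46 CPM at 3 mg/kg and 5.87 to 6.20 at 6 mg/kg. Ndufs7 65083, with more counts, had a slope below 0 that was not called (-0.11 ± 0.05, edgeR adjusted p 0.127). Among negative slopes the smallest were those of Ndufa9 59930 (-0.50 ± 0.11, edgeR adjusted p 0.00363), Ndufv3 29149 (-0.30 ± 0.07, 0.00699) and Ndufv3 76222 (-0.12 ± 0.03, 0.00777).

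Genes that serve the same machinery were taken as lists, 1 probe a gene, and described by their counts beside the 20.3% of all tested probes at 6 mg/kg. Of 17 tested genes for coenzyme Q synthesis and electron entry, 5 were higher and 2 lower (41.2%), with a median log2 change of 0.14. Etfdh, which passes electrons of fatty acid oxidation to coenzyme Q, averaged 23.9 ± 7.17 CPM at 6 mg/kg and 9.30 ± 2.18 in controls (1.36 ± 0.33, edgeR adjusted p 0.0068). Coq7, a hydroxylase of coenzyme Q synthesis, rose by 0.58 ± 0.15 (edgeR adjusted p 0.00772). The lower genes were Sqor, which oxidises sulfide (-0.70 ± 0.17, edgeR adjusted p 0.00557), and Dhodh of pyrimidine synthesis (-0.46 ± 0.12, 0.0118).

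Of 14 genes of the TCA cycle, 3 were higher and 0 lower (21.4%). They included Suclg2 (0.52 ± 0.14, edgeR adjusted p 0.0108) and Cs, citrate synthase (0.54 ± 0.15, 0.0160). Of 31 assembly factors of complexes II to V, 3 were higher and 1 lower (12.9%), and of 7 complex I assembly genes without the prefix, 1 was higher (Acad9, 0.98 ± 0.28, edgeR adjusted p 0.0172). The mitochondrial ribosome had 2 higher and 6 lower of 71 (11.3%). A list of carriers of ADP, ATP, phosphate and other metabolites, uncoupling proteins and Vdac channels had 0 called of 10 tested genes.

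Of 8 tested subunits encoded in mitochondrial DNA, 1 was called. This was mt-Nd4, a proton-pumping subunit of complex I, with 49.6, 59.8, 55.4 and 17.4 CPM at 6 mg/kg, against 146, 137, 105 and 129 CPM in controls (-1.5 ± 0.49, edgeR adjusted p 0.0361). Of 11 regulators, 1 was higher (Gabpa, 0.42 ± 0.13, edgeR adjusted p 0.0313) and 1 lower. The lower one was Ppargc1a, with 3.83, 4.26, 3.78 and 1.70 CPM at 6 mg/kg, against 5.98, 9.97, 12.5 and 8.55 CPM in controls. Its groups did not overlap (-1.46 ± 0.26, edgeR adjusted p 0.00041), and against 3 mg/kg the log2 change was -1.36 (adjusted p 0.00392).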

How the data were processed

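Per the submitters' processing notes, reads were aligned with Bowtie and the build was GRCm38.p5 (no versions or settings are named there). The authors deposited raw counts per probe, and 1 library was made per mouse. All 20 libraries entered edgeR 4.0.16 (R 4.3.3): TMM scaling, filterByExpr by group, robust quasi-likelihood fit, 1 mean per group. Benjamini-Hochberg adjustment ran over all 14122 tested probes, with calls at an adjusted p under 0.05. DESeq2 1.42.0, limma 3.58.1 (voom), other scalings, other filters, plate row, counts summed per gene and left-out libraries were alternatives. The test was also run on simulated data. The simulation held no plate row effect and no library that stands apart, so it gives no support to the calls here. Library totals were 6823518 to 10310931 counts and, after TMM scaling for CPM, 5882018 to 11965707, and floors cover counting error only. Replicate numbers follow accession order. Nothing beyond separate mice was given about replicates. Members and lists were chosen with earlier results of these data known. Named were up to 4 called probes per complex and direction with the smallest p, core subunits, isoform sets, members called in other comparisons, the 3 smallest slope p per direction and genes whose probes disagreed. Gene positions are from GENCODE M21 (GRCm38; 90 of 91 genes matched) and promoters from RefSeq GRCm38.p6. Values of 1 member and of 1 gene of the related lists are not reported here, though both stay in the fits and counts.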

Additional observations from a re-analysis of the deposited data

Results flagged for a closer look

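In 145 groups of 4 libraries (22 probes and 7 sums), 13 had a library whose gap to the others exceeded Dixon's 95% critical value, where chance gives about 1 in 20. Of these, 5 were in replicate 4 at 3 mg/kg. In that library Ndufb3 had 23.98 CPM (others 11.8 to 12.1), Ndufb4 171.2 (311 to 328), Ndufb9 322.4 (115 to 139) and Sdha 72848 123.8 (52.2 to 61.4). Its complex I subunits summed to 5456.5 CPM, beside 7185 to 7460 in the others.

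In replicate 4 at 6 mg/kg, Ndufv3 29149 had 8.586 CPM (others 28.0 to 29.8). In controls, Ndufa9 59930 had 25.91 CPM in replicate 1 (others 17.2 to 17.7), and Uqcrfs1 14.64 in replicate 4 (16.3 to 16.6). At 0.3 mg/kg, Atp5k had 173.0 CPM in replicate 2 (207 to 211), complex I subunits summed to 5595.9 in replicate 3 (6119 to 6198) and complex IV to 1924.2 in replicate 4 (1621 to 1651). At 0.03 mg/kg, Cox7a2l had 2.547 CPM in replicate 1 (5.76 to 6.19), and all members summed to 16964.9 in replicate 3 (15808 to 15882).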

How the results depend on the processing

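No paired analysis was made, since each library came from a separate mouse given 1 dose, and the labels carry no replicate numbers. Members called higher and lower at 6 mg/kg against controls (11 and 9) came to 13 and 5 with total counts alone, 7 and 5 with no filter on low counts, 1 and 1 with plate row, 6 and 5 with counts summed per gene, 11 and 17 with only the 8 libraries compared, and 13 and 18 without the 2 libraries that stood apart. Leaving out 1 library gave 4 to 10 higher and 3 to 14 lower. DESeq2 kept all 20 calls and limma-voom 16. At 3 mg/kg 1 member was lower with total counts, DESeq2, limma-voom and without the 2 libraries, and 0 to 1 leaving out 1 library. For 6 against 3 mg/kg (3 higher, 2 lower), lower calls came to 1 with total counts, 1 with no filter and 4 with DESeq2; both directions came to 0 and 1 summed per gene, 0 and 0 with 8 libraries and 9 and 15 without the 2. Leaving out 1 library gave 1 to 12 higher and 0 to 15 lower. For the slope (10 and 5), no filter gave 6 positive, plate row 2 positive, sums per gene 3 negative and the fit without the 2 libraries 8 negative; leaving out 1 library gave 4 to 11 and 3 to 8. With plate row the slope of Ndufb3 71562 turned to -0.0253. With major urinary protein probes left out, the share at 6 mg/kg minus controls moved to -0.112 percentage points for complex I, -0.0198 for its assembly factors, -0.00735 for complex II, -0.0142 for complex III, -0.0535 for complex IV, -0.00976 for complex V and -0.217 for all members. Complexes II, III and V thereby changed sign, with 0.000808, 0.00198 and 0.0269 on all counts. Total counts moved the median of all probes at 6 mg/kg to 0.15 and that of members to 0.08, with 1898 probes higher and 813 lower in the whole table, beside 1634 and 1233. The cause of these shifts was not tested. At 0.3 and 0.03 mg/kg every alternative run gave 0 calls among members.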

Other observations

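Among the probes with wide groups, Cox6c, Atp5e 29480, Sdhd and Ndufv1 74632 placed the mice of the low-dose groups alike. In controls replicate 4 was the highest of each, with 308, 570, 97.8 and 9.85 CPM in that order of genes. At 0.03 mg/kg replicate 1 was the highest (256, 500.4, 82.4 and 8.97 CPM) and replicate 4 the lowest (98.1, 263, 35 and 1.95 CPM). At 0.3 mg/kg replicate 4 was again the highest (290, 444, 73.9 and 9.95 CPM). These probes were picked after their values were seen, and no test was made.

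For Cox6b2, probe 69836 had 0.240, 0.122, 0.354 and 0.200 CPM at 6 mg/kg and 0 in all 4 controls, at or under the level of 3 counts, so that no fold is given.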
